A study of Mus musculus with 20 samples.

Results

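The 19 gene sets described here are the mitochondrial sets among the 3886 listed in gene set enrichment reports on mouse myeloid cells and melanoma lines. They were picked by name alone, as every set whose name contains MITOCHONDRI, OXIDATIVE_PHOSPHORYLATION, OXPHOS, RESPIRATORY_ELECTRON, TCA_CYCLE, CITRATE or CITRIC_ACID, and 0 of them end in DN. By name, 4 are electron transport sets, 3 are TCA cycle sets, 1 joins both processes, 2 concern mitochondrial translation, 1 protein import, 1 fatty acid oxidation and 1 apoptosis. The other 6 hold a pair of whole-organelle lists, a pair of biogenesis sets and a pair of cell death sets.

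RNA had been sequenced in 20 libraries of C57BL/6 material. Myeloid cells were obtained from marrow or spleen of adult mice by removing CD3e-positive cells, so the preparations may still hold B cells, erythroid cells and other cells without CD3e. Bone marrow gave 3 libraries from B16F10 tumor-bearing, 2 from YUMM3.3 tumor-bearing and 3 from healthy animals, and spleen gave 2 libraries in each of these conditions. Each cultured line, YUMM3.3 and B16F10, gave 3 libraries. B16F10 is a metastatic mouse melanoma line, and YUMM3.3 was derived from a genetically engineered mouse melanoma. Each tumour type is therefore represented by 1 line. Sex, tumour site, time of tumour growth and pooling of animals are not given in the sources used here, nor do the labels tie libraries to separate animals or cultures.

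Mitochondria make most of the ATP of a resting cell by oxidative phosphorylation. The TCA cycle oxidises acetyl groups and passes electrons, as NADH and succinate, to the respiratory complexes, which pump protons that drive the ATP synthase. Some subunits of these complexes are encoded in mitochondrial DNA and made on mitochondrial ribosomes with their own aminoacyl-tRNA synthetases, while the remaining proteins are made in the cytosol and imported. Among myeloid cells, neutrophils and inflammatory macrophages are known for their use of glycolysis, and alternatively activated macrophages for oxidative metabolism.

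The values are the authors' own. For each set and comparison their deposited table gives a normalised enrichment score (NES), which tells how strongly the genes of the set gather at one end of a list of about 14500 genes (14200 for the lines) ranked by the difference between the groups, and a false discovery rate q. Below, NES above 0 stands for higher values in the group named first, and a set is called higher or lower at a q below 0.05. There is 1 value for each set and comparison and none for a library or a gene, so no spread between replicates, fold change of a gene or marker check of the labelled cell type could be computed, and library depth is unknown. Nominal p other than 0 went down to 0.00103 in the files. Exchanging whole libraries between groups could give no less than 0.167 in spleen, 0.100 with 3 against 2 libraries and 0.05 with 3 against 3, so these p and q carry no information on how much animals or cultures vary. The sets also share genes, so the 19 are not separate pieces of evidence. In bulk samples, more cells of a mitochondria-rich type and more of these transcripts per cell cannot be told apart.

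In bone marrow, the 4 electron transport sets, the mitochondrial ribosome set REACTOME_MITOCHONDRIAL_TRANSLATION and the import set were higher in animals with either tumour than in healthy animals. TCA cycle sets were higher with B16F10 and had NES below 0, none of them called, with YUMM3.3. In B16F10-bearing against healthy marrow, 13 of the 19 sets were called higher, where 20.1% of all listed sets were, and 0 were called lower, where 5.00% of all sets were. With YUMM3.3 against healthy marrow, 9 of 19 were called higher, against 9.68% of all sets, and 0 lower, against 6.52%. Of the sets listed as lower, 0 with B16F10 and 1 with YUMM3.3, the biogenesis set named for transcriptional activation, had an unadjusted nominal p below 0.05. Of all sets, 13.4% with B16F10 and 15.6% with YUMM3.3 lay on the lower side at that p. The median NES of the 19 sets was 1.88 with B16F10 and 1.59 with YUMM3.3, where that of all sets was 0.956 and 0.744.

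The direct comparison of the tumours in marrow split the sets. With B16F10, 9 of 19 sets were called lower than with YUMM3.3, where 8.40% of all sets were, and 0 higher, where 8.09% were. The 9 were the 4 electron transport sets, the joint set, REACTOME_MITOCHONDRIAL_TRANSLATION, import and both whole-organelle lists. The 3 TCA cycle sets stood on the other side, at NES 1.39 to 1.52 in the authors' deposited table. Their q in the authors' deposited table was 0.0938 to 0.162, so none was called. An unadjusted nominal p below 0.05 was given to 2 of them, where 17.8% of all sets lay on the higher side at that p. The 3 marrow comparisons reuse the same libraries and are not independent of each other.

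In spleen, the 4 electron transport sets, REACTOME_MITOCHONDRIAL_TRANSLATION and the import set were higher with B16F10 than in healthy animals, and no mitochondrial set was called with YUMM3.3. In B16F10-bearing against healthy spleen, 10 of 19 sets were called higher, against 16.6% of all sets, and 1 lower, against 1.60%. In YUMM3.3-bearing against healthy spleen, 0 of 19 were called higher, where 15.6% of all sets were, and 0 lower, where 5.31% were. At an unadjusted nominal p below 0.05 it was also 0 in either direction, where 19.4% of all sets lay on the higher and 17.9% on the lower side. In B16F10-bearing against YUMM3.3-bearing spleen, 8 of 19 were called higher, against 9.63%, and 1 lower, against 1.47%. The electron transport sets therefore differed between the tumours in opposite directions in the 2 tissues, lower with B16F10 in marrow and higher with B16F10 in spleen. At a family-wise p below 0.05, 0 mitochondrial sets were called in either direction in these spleen comparisons. Few of all sets passed it, 5.25% higher and 0.489% lower with B16F10 against healthy spleen. With YUMM3.3 against healthy spleen 6.85% and 0.335% did, and between the tumours in spleen 1.42% and 0.386%. In marrow, 7 mitochondrial sets were still lower with B16F10 than with YUMM3.3 at that p, where 2.16% of all sets were. The difference between the tissues itself was not tested.

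In culture, the electron transport sets were lower in the YUMM3.3 line than in the B16F10 line. Of the 19 sets, 9 were called lower in YUMM3.3, where 1.47% of all sets were, and 0 higher, where 11.8% were. At an unadjusted nominal p below 0.05, again 0 were higher, where 26.5% of all sets were. At a family-wise p below 0.05, 4 were lower, where 0.362% of all sets were. The median NES of the 19 sets was -1.65, while that of all listed sets was 1.08.

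**Figure D1:**
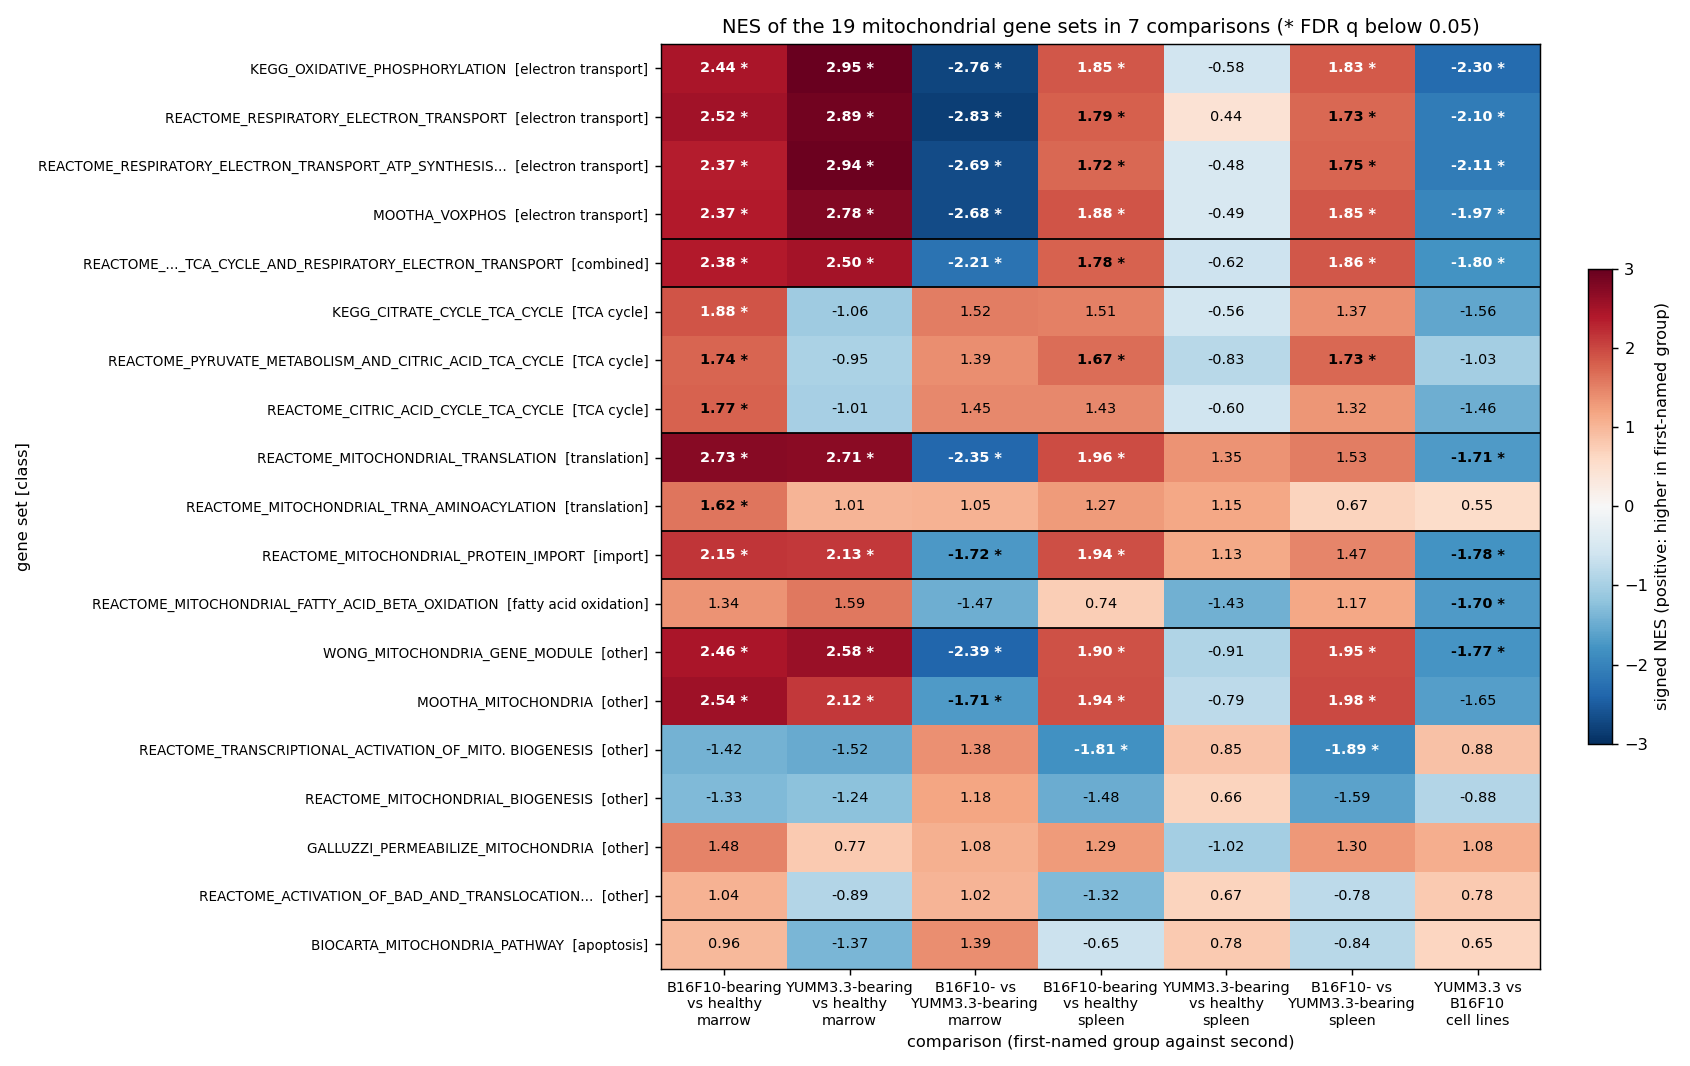
Signed NES of the 19 mitochondrial gene sets (rows, grouped by class) in 7 comparisons (columns), from the authors' deposited tables; red is higher and blue lower in the first-named group, and an asterisk marks an FDR q below 0.05. The 4 electron transport sets run from 2.37 to 2.95 in both tumours against healthy marrow and from -2.30 to -1.97 in YUMM3.3 against B16F10 cells, while the 3 TCA cycle sets are at -1.06 to -0.946 in YUMM3.3-bearing against healthy marrow.

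**Figure D2:**
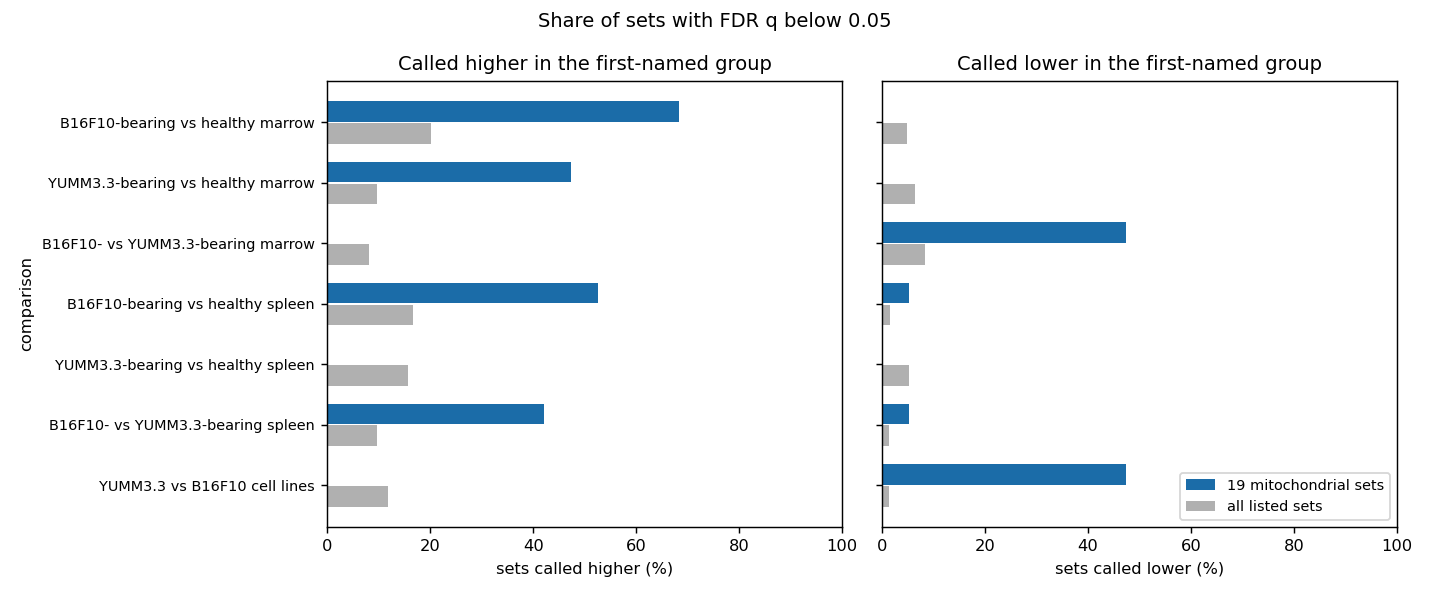
Percent of sets with an FDR q below 0.05, called higher (left) or lower (right) in the first-named group, for the 19 mitochondrial sets (blue) and all listed sets (grey). The mitochondrial share passes the share of all sets on the higher side in 4 comparisons of tumour-bearing animals and, with 9 sets each, on the lower side in B16F10- against YUMM3.3-bearing marrow and in the cell lines. With 1 set (5.26%) it also passes on the lower side in B16F10-bearing spleen, against healthy (1.60% of all sets) and YUMM3.3-bearing (1.47%) spleen. It is 0 on both sides in YUMM3.3-bearing against healthy spleen.

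The electron transport sets collect subunits of the respiratory complexes, and some of the sets also hold those of the ATP synthase. KEGG_OXIDATIVE_PHOSPHORYLATION, of 85 genes, had the largest mean NES size of the 4. In marrow, the authors' deposited table gave it an NES of 2.44 in B16F10-bearing against healthy animals, 2.95 in YUMM3.3-bearing against healthy animals and -2.76 in B16F10-bearing against YUMM3.3-bearing animals, each with q listed as 0. It stood 10th from the top of 3883 sets in YUMM3.3-bearing against healthy marrow and 56th in B16F10-bearing against healthy marrow. In spleen, its NES in the authors' deposited table was 1.85 in B16F10-bearing against healthy animals (q = 0.00475), -0.584 in YUMM3.3-bearing against healthy animals (q = 0.992) and 1.83 in B16F10-bearing against YUMM3.3-bearing animals (q = 0.0148). In the lines its NES was -2.30, the lowest of all 3871 sets in the authors' deposited table, with q listed as 0. This set was therefore called in 6 of 7 comparisons and led the whole list of sets toward the B16F10 line.

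MOOTHA_VOXPHOS, a list of 56 oxidative phosphorylation genes, had the smallest mean NES size of the 4 and followed the same order. Its NES in the authors' deposited table was 2.37 in B16F10-bearing and 2.78 in YUMM3.3-bearing marrow against healthy marrow, -2.68 between the tumours in marrow, and -1.97 in YUMM3.3 against B16F10 cells. In spleen the authors' deposited table gave it 1.88 in B16F10-bearing and -0.488 in YUMM3.3-bearing animals against healthy animals, and 1.85 between the tumours. REACTOME_RESPIRATORY_ELECTRON_TRANSPORT, of 68 genes, and REACTOME_RESPIRATORY_ELECTRON_TRANSPORT_ATP_SYNTHESIS_BY_CHEMIOSMOTIC_COUPLING_AND_HEAT_PRODUCTION_BY_UNCOUPLING_PROTEINS, of 73 genes, which adds the ATP synthase and the uncoupling proteins, lay close to these. Between the tumours in marrow, the first of them had a score (NES) of -2.83 in the authors' deposited table, 10th from the bottom of 3883 sets.

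With YUMM3.3 against healthy spleen the 4 sets had NES of -0.584 to 0.437 in the authors' deposited table, all with a nominal p listed as 1. These are the lowest NES sizes of the 4 sets in any of the 7 comparisons.

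The 4 lists are known to share many subunits, and several of their scores peaked at the same gene. The rank of the peak in the ordered gene list, counted from the end of the group in which the set is higher, was 3970 for 3 of the 4 electron transport sets and for the joint set in B16F10-bearing against healthy marrow. It was 1074 for 3 of them in YUMM3.3-bearing against healthy marrow, and 1704 for all 4, together with WONG_MITOCHONDRIA_GENE_MODULE, in B16F10-bearing against YUMM3.3-bearing marrow.

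These peaks also tell how large a share of each set carried its score, though not how many genes changed or by how much. For YUMM3.3-bearing against healthy marrow, 49% to 63% of the genes of the 4 electron transport sets lay within the first 7% to 8% of the ranked genes, per the authors' deposited table. In B16F10-bearing against healthy marrow, the authors' deposited table placed the peak later, with 72% to 86% of the genes within the first 25% to 27%. A smaller share of the genes, ranked nearer the top, thus carried the score with YUMM3.3, and a larger share, spread deeper into the list, carried it with B16F10. In B16F10-bearing against YUMM3.3-bearing marrow, the authors' deposited table gave the same shares as with YUMM3.3 against healthy, 49% to 63%, within 12% of the list. These 2 comparisons share the YUMM3.3-bearing libraries. In spleen, 66% to 84% of the genes lay within 28% to 34% of the list in B16F10-bearing against healthy animals, per the authors' deposited table, and 67% to 77% within 32% to 34% against YUMM3.3-bearing animals. Which genes these are could not be seen, because member genes were not analysed here.

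**Figure D3:**
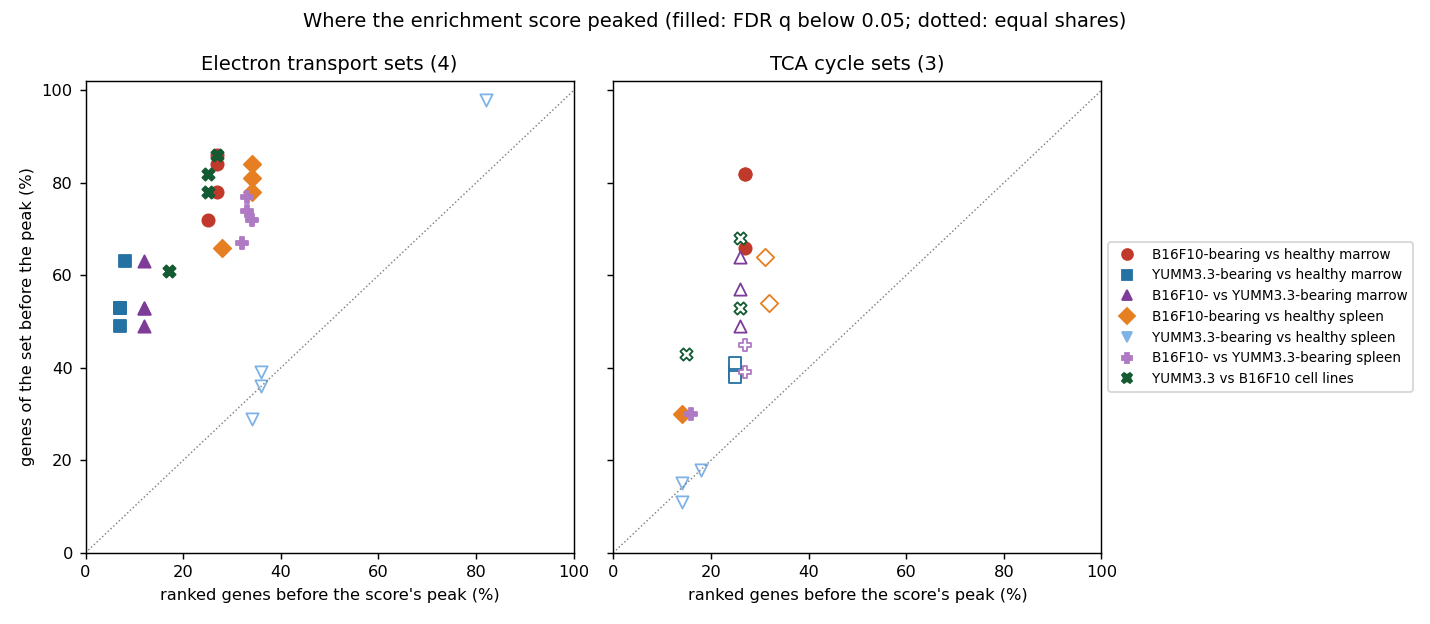
Share of the ranked genes before the score's peak (x axis, percent) against the share of the set's genes before it (y axis, percent), for the 4 electron transport sets (left) and the 3 TCA cycle sets (right), 1 point for each set and comparison; filled points have an FDR q below 0.05 and the dotted line marks equal shares. Electron transport sets in YUMM3.3-bearing against healthy marrow sit at 7% to 8% of the list with 49% to 63% of their genes, and those in B16F10-bearing against healthy marrow at 25% to 27% with 72% to 86%.

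The TCA cycle sets followed another pattern. KEGG_CITRATE_CYCLE_TCA_CYCLE, of 28 genes for the enzymes of the cycle, had the largest mean NES size of the 3. In marrow, the authors' deposited table gave it an NES of 1.88 in B16F10-bearing against healthy animals (q = 0.00578), -1.06 in YUMM3.3-bearing against healthy animals (q = 0.510) and 1.52 between the tumours (q = 0.0938). In spleen, its NES in the authors' deposited table was 1.51 in B16F10-bearing and -0.561 in YUMM3.3-bearing animals against healthy animals, and 1.37 between the tumours, with q of 0.0971, 0.994 and 0.213. In YUMM3.3 against B16F10 cells it was -1.56 in the authors' deposited table (q = 0.149). It was therefore called in 1 comparison, B16F10-bearing against healthy marrow, where 82% of its genes lay within the first 27% of the list.

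REACTOME_CITRIC_ACID_CYCLE_TCA_CYCLE, of 22 genes, had the smallest mean NES size of the 3. The authors' deposited table gave it an NES of 1.77 in B16F10-bearing against healthy marrow (q = 0.0143), -1.01 in YUMM3.3-bearing against healthy marrow and 1.45 between the tumours in marrow. Spleen values of the set in the authors' deposited table were 1.43 in B16F10-bearing and -0.603 in YUMM3.3-bearing animals against healthy animals, and 1.32 between the tumours, and in the lines it gave -1.46. REACTOME_PYRUVATE_METABOLISM_AND_CITRIC_ACID_TCA_CYCLE, of 47 genes, adds the steps that feed pyruvate into the cycle and was called in 3 comparisons. Its NES in the authors' deposited table was 1.74 in B16F10-bearing against healthy marrow (q = 0.0179), 1.67 in B16F10-bearing against healthy spleen (q = 0.0314) and 1.73 in B16F10-bearing against YUMM3.3-bearing spleen (q = 0.0331).

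In YUMM3.3-bearing against healthy marrow, then, the electron transport sets had NES of 2.78 to 2.95 and the TCA cycle sets of -1.06 to -0.946 in the authors' deposited table. In B16F10-bearing against healthy marrow, both classes were called higher, at 2.37 to 2.52 and at 1.74 to 1.88 in the authors' deposited table. The gap between the classes was not tested, since the sets share genes and there are no values by library. REACTOME_THE_CITRIC_ACID_TCA_CYCLE_AND_RESPIRATORY_ELECTRON_TRANSPORT, which joins both processes in 116 genes, was called in the same 6 comparisons and directions as the electron transport sets. The authors' deposited table gave it an NES of 2.38 in B16F10-bearing and 2.50 in YUMM3.3-bearing marrow against healthy marrow, and -2.21 between the tumours in marrow (q = 7.89e-05). In spleen its NES in the authors' deposited table was 1.78 in B16F10-bearing and -0.623 in YUMM3.3-bearing animals against healthy animals, and 1.86 between the tumours, and in the lines it was -1.80.

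**Figure D4:**
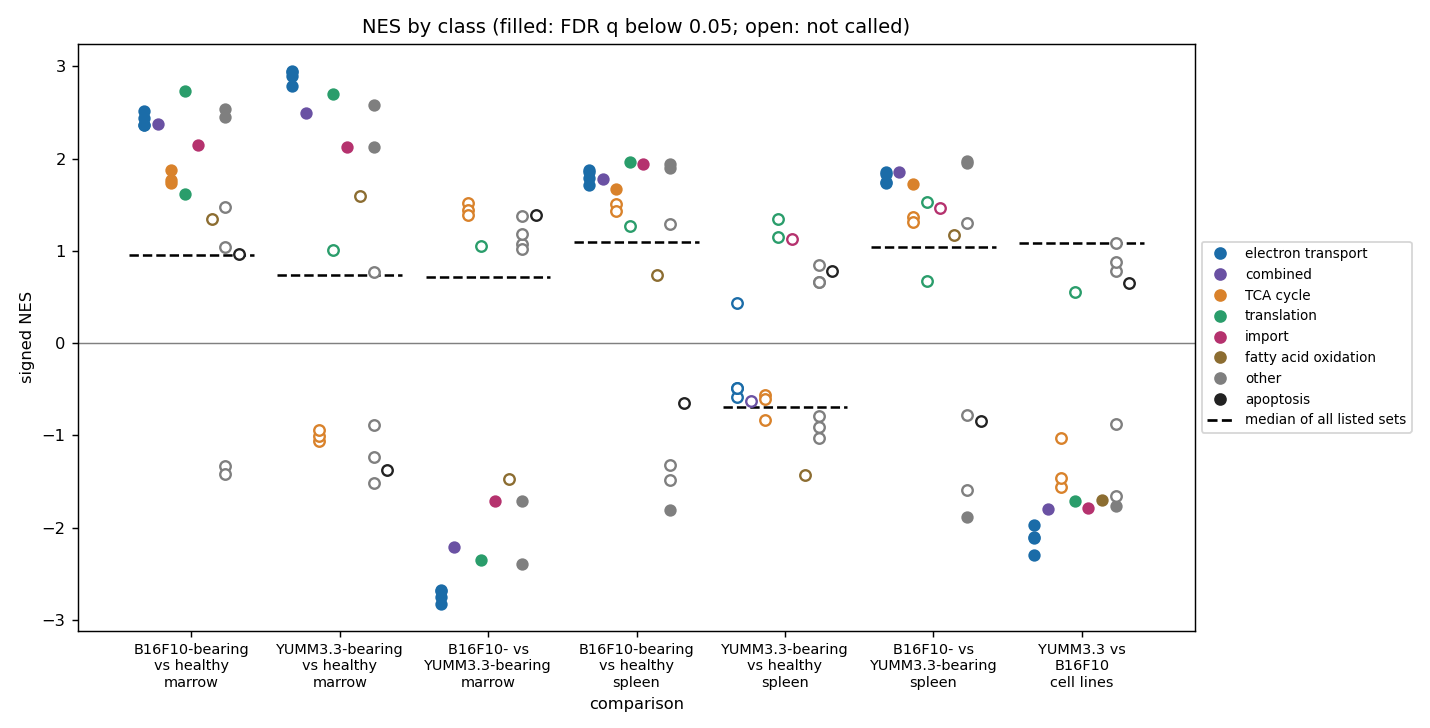
Signed NES (y axis) of each mitochondrial set by comparison (x axis), coloured by class; filled points have an FDR q below 0.05, open points do not, and dashed lines give the median NES of all listed sets. TCA cycle sets lie between 1.39 and 1.52 in B16F10- against YUMM3.3-bearing marrow, where the electron transport sets lie between -2.83 and -2.68.

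Mitochondrial translation was represented by a pair of sets that differed. REACTOME_MITOCHONDRIAL_TRANSLATION, of 81 genes, mainly proteins of the mitochondrial ribosome, had an NES of 2.73 in B16F10-bearing against healthy marrow in the authors' deposited table, 5th from the top of 3883 sets and the highest of the 19. The authors' deposited table gave it 2.71 in YUMM3.3-bearing against healthy marrow and -2.35 between the tumours in marrow, with q listed as 0 in each. In spleen its NES in the authors' deposited table was 1.96 in B16F10-bearing against healthy animals (q = 0.000933), 1.35 in YUMM3.3-bearing against healthy animals (q = 0.175) and 1.53 between the tumours (q = 0.107). In YUMM3.3 against B16F10 cells it was -1.71 in the authors' deposited table, with a q of 0.0475, just inside the threshold.

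Unlike the electron transport sets, REACTOME_MITOCHONDRIAL_TRANSLATION was not called between the tumours in spleen. Its NES in YUMM3.3-bearing against healthy spleen was 1.35, where the electron transport sets had -0.584 to 0.437, and neither was called. In B16F10-bearing against healthy marrow 85% of the REACTOME_MITOCHONDRIAL_TRANSLATION genes lay within the first 26% of the list, per the authors' deposited table. In YUMM3.3-bearing against healthy marrow 54% of them lay within 14%.

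REACTOME_MITOCHONDRIAL_TRNA_AMINOACYLATION, of 20 genes, holds the enzymes that charge mitochondrial tRNAs. It was called in 1 comparison, B16F10-bearing against healthy marrow, with a score (NES) of 1.62 in the authors' deposited table (q = 0.0396). In the other marrow comparisons the authors' deposited table gave 1.01 in YUMM3.3-bearing against healthy animals and 1.05 between the tumours, in spleen 1.27, 1.15 and 0.674 for B16F10-bearing against healthy, YUMM3.3-bearing against healthy and B16F10-bearing against YUMM3.3-bearing animals, and in the lines 0.550. All its NES were above 0, including those between the tumours in marrow and in the lines, where the NES of the mitochondrial ribosome set was below 0.

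REACTOME_MITOCHONDRIAL_PROTEIN_IMPORT, of 48 genes, covers the translocases of both membranes and their partners. In marrow, the authors' deposited table gave it an NES of 2.15 in B16F10-bearing against healthy animals (q = 0.000199), 2.13 in YUMM3.3-bearing against healthy animals (q = 0.000176) and -1.72 between the tumours (q = 0.0286). In spleen it was called with B16F10 against healthy animals, at 1.94 in the authors' deposited table (q = 0.00131), while YUMM3.3-bearing against healthy animals gave 1.13 and B16F10-bearing against YUMM3.3-bearing animals 1.47 (q = 0.432 and 0.141). In the lines its NES was -1.78 in the authors' deposited table (q = 0.0278). Between the tumours in marrow its score peaked early, with 25% of the set within 5% of the list in the authors' deposited table.

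REACTOME_MITOCHONDRIAL_FATTY_ACID_BETA_OXIDATION, of 32 genes, covers the pathway that breaks fatty acids down to acetyl-CoA. It was called in the lines, lower in YUMM3.3 with a score (NES) of -1.70 and a q of 0.0498 in the authors' deposited table, at the edge of the threshold. In marrow the authors' deposited table gave 1.34 in B16F10-bearing and 1.59 in YUMM3.3-bearing animals against healthy animals, and -1.47 between the tumours (q = 0.147, 0.0597 and 0.119). In spleen the authors' deposited table gave 0.739 in B16F10-bearing and -1.43 in YUMM3.3-bearing animals against healthy animals, and 1.17 between the tumours (q = 0.905, 0.148 and 0.415).

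The whole-organelle lists were called in the same direction as electron transport in 5 comparisons, those of both tumours against healthy marrow, between the tumours in marrow, and of B16F10-bearing spleen. WONG_MITOCHONDRIA_GENE_MODULE, of 181 genes (180 in the lines), had NES of 2.46 in B16F10-bearing and 2.58 in YUMM3.3-bearing marrow against healthy marrow and -2.39 between the tumours in marrow, per the authors' deposited table. In spleen, the authors' deposited table gave it 1.90 in B16F10-bearing and -0.911 in YUMM3.3-bearing animals against healthy animals, and 1.95 between the tumours, and in the lines it gave -1.77 (q = 0.0319). MOOTHA_MITOCHONDRIA, of 376 genes (373 in the lines), was called in 5 comparisons and had an NES of -1.65 in the lines in the authors' deposited table, with a q of 0.0746.

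The biogenesis sets had an NES of opposite sign to all 4 electron transport sets in both tumours against healthy marrow, between the tumours in marrow, and in both comparisons of B16F10-bearing spleen, and 2 of their 14 values were called. REACTOME_TRANSCRIPTIONAL_ACTIVATION_OF_MITOCHONDRIAL_BIOGENESIS, of 44 genes, names the transcription factors and coactivators, such as the PGC-1 family, that switch on mitochondrial genes. It was the single set called lower in spleen, with an NES of -1.81 in B16F10-bearing against healthy animals (q = 0.0429) and -1.89 in B16F10-bearing against YUMM3.3-bearing animals (q = 0.0236) in the authors' deposited table. In marrow, the authors' deposited table gave it -1.42 in B16F10-bearing and -1.52 in YUMM3.3-bearing animals against healthy animals, and 1.38 between the tumours, with q of 0.171, 0.102 and 0.174. In YUMM3.3-bearing against healthy spleen it had 0.851 and in the lines 0.877 in the authors' deposited table, neither called. REACTOME_MITOCHONDRIAL_BIOGENESIS, of 64 genes, was called in no comparison. Its NES in the authors' deposited table lay on the same side in the 6 myeloid comparisons, and its score peaked at the same rank as that of the transcriptional set in 4 of them.

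The 3 sets on mitochondria in cell death were called in no comparison. BIOCARTA_MITOCHONDRIA_PATHWAY, of 19 genes, describes the release of apoptotic factors from mitochondria. The authors' deposited table gave it NES of 0.963 in B16F10-bearing and -1.37 in YUMM3.3-bearing marrow against healthy marrow and 1.39 between the tumours in marrow. The authors' deposited table gave it, in spleen, -0.646 in B16F10-bearing and 0.777 in YUMM3.3-bearing animals against healthy animals, and -0.841 between the tumours, and in the lines it gave 0.649.

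REACTOME_ACTIVATION_OF_BAD_AND_TRANSLOCATION_TO_MITOCHONDRIA, of 15 genes, concerns a proapoptotic BCL-2 family protein and had the smallest mean NES size of the 6 sets outside the named classes. The authors' deposited table gave it NES of 1.04 in B16F10-bearing and -0.886 in YUMM3.3-bearing marrow against healthy marrow and 1.02 between the tumours in marrow. In spleen the authors' deposited table gave it -1.32 in B16F10-bearing and 0.667 in YUMM3.3-bearing animals against healthy animals, and -0.777 between the tumours, and in the lines it gave 0.780. GALLUZZI_PERMEABILIZE_MITOCHONDRIA, of 38 genes for membrane permeabilization, came nearest to the threshold in B16F10-bearing against healthy marrow, at 1.48 in the authors' deposited table (q = 0.0792).

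Over the 7 comparisons, 6 of the 19 sets were called in 6 of them, all 4 electron transport sets, the joint set and WONG_MITOCHONDRIA_GENE_MODULE. The comparison in which these 6 were not called was YUMM3.3-bearing against healthy spleen. How many of all listed sets were called in 6 comparisons, or in none, was not counted. The comparisons within a tissue reuse the same libraries, so the 6 comparisons are not independent of each other. In 4 sets, the 3 on cell death and REACTOME_MITOCHONDRIAL_BIOGENESIS, no comparison was called.

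Of 8 related sets outside the naming rule, 5 were called higher in B16F10-bearing against healthy marrow, where 20.1% of all sets were, and 3 in YUMM3.3-bearing against healthy marrow, where 9.68% were. In spleen 4 were called higher in B16F10-bearing against healthy animals (16.6% of all sets), 2 in YUMM3.3-bearing against healthy animals (15.6%) and 3 in B16F10-bearing against YUMM3.3-bearing animals (9.63%). On the lower side, 2 were called in B16F10-bearing against YUMM3.3-bearing marrow (8.40% of all sets) and 2 in YUMM3.3 against B16F10 cells (1.47%). REACTOME_COMPLEX_I_BIOGENESIS, of 39 genes for assembly of the first respiratory complex, had NES of 2.25 in B16F10-bearing and 2.82 in YUMM3.3-bearing marrow against healthy marrow and -2.75 between the tumours in marrow, per the authors' deposited table. In spleen it was not called in B16F10-bearing against healthy animals, at 1.59 in the authors' deposited table (q = 0.0601), where all 4 electron transport sets were. The authors' deposited table gave it 0.646 in YUMM3.3-bearing against healthy spleen (q = 0.989), 1.70 in B16F10-bearing against YUMM3.3-bearing spleen (q = 0.0387) and -1.94 in YUMM3.3 against B16F10 cells (q = 0.00242). The 2 sets called in YUMM3.3-bearing against healthy spleen both concern tRNA charging, REACTOME_CYTOSOLIC_TRNA_AMINOACYLATION at 1.89 and REACTOME_TRNA_AMINOACYLATION at 1.73 in the authors' deposited table. These 2 sets were also among those called higher in B16F10-bearing against healthy marrow and spleen. By its name the first concerns the cytosol, so the counts of related sets are not of mitochondrial sets alone.

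Cytosolic ribosome sets were called in the same directions as electron transport in marrow and in the opposite direction in the lines. All 5 were called higher in each tumour against healthy marrow, where 20.1% of all sets were with B16F10 and 9.68% with YUMM3.3, with median NES of 2.15 in B16F10-bearing and 3.09 in YUMM3.3-bearing animals, and all 5 were called lower with B16F10 than with YUMM3.3 (median -3.13, 8.40% of all sets lower). In the lines they stood opposite to the mitochondrial sets, with 3 of 5 called higher in YUMM3.3, against 11.8% of all sets, and a median NES of 1.63, where the median of the electron transport sets was -2.11. With YUMM3.3 in spleen against healthy animals, 1 of the 5 was called lower (5.31% of all sets), while 0 were called in B16F10-bearing against healthy spleen and 3 were called higher in B16F10-bearing against YUMM3.3-bearing spleen (9.63%).

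Of the 5 glycolysis and gluconeogenesis sets, 2 were called higher in B16F10-bearing against healthy marrow, where 20.1% of all sets were. With YUMM3.3 against healthy marrow 0 were higher (9.68% of all sets) and 1 lower (6.52%), and between the tumours in marrow 1 was higher (8.09%). In spleen 1 was called higher in each comparison, where 16.6% of all sets were in B16F10-bearing against healthy animals, 15.6% in YUMM3.3-bearing against healthy animals and 9.63% in B16F10-bearing against YUMM3.3-bearing animals. REACTOME_GLYCOLYSIS was the set called lower in YUMM3.3-bearing against healthy marrow, at -1.69 in the authors' deposited table (q = 0.0434). In YUMM3.3-bearing against healthy spleen it was called higher, at 1.58 in the authors' deposited table (q = 0.0446). In that spleen comparison 3 of the 5 sets had NES below 0 and 2 above, with a median of -0.993. Between the tumours in marrow REACTOME_GLYCOLYSIS had 2.02 in the authors' deposited table (q = 0.00380). Its sign was that of the TCA cycle sets and opposite to that of electron transport. Of the 5 sets in that marrow comparison, 3 had NES above 0 and 2 below, with a median of 0.728. KEGG_GLYCOLYSIS_GLUCONEOGENESIS was the set called higher in both comparisons of B16F10-bearing spleen, at 1.63 against healthy animals (q = 0.0475) and 1.93 against YUMM3.3-bearing animals (q = 0.00476) in the authors' deposited table.

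Sets named for other cells were counted because CD3e depletion may leave such cells. Of 25 B cell sets, 5 were called higher and 4 lower in B16F10-bearing against healthy marrow (20.1% and 5.00% of all sets), 3 and 3 in YUMM3.3-bearing against healthy marrow (9.68% and 6.52%), and 2 and 1 between the tumours in marrow (8.09% and 8.40%). In spleen, 2 B cell sets were called higher and 3 lower in B16F10-bearing against healthy animals (16.6% and 1.60% of all sets), 3 and 1 in YUMM3.3-bearing against healthy animals (15.6% and 5.31%), and 0 and 3 between the tumours (9.63% and 1.47%). Of 13 erythroid sets, beside the same shares, 2 were called higher and 0 lower in B16F10-bearing against healthy marrow, 0 and 1 in YUMM3.3-bearing against healthy marrow, and 1 and 0 between the tumours in marrow. In spleen, 4 erythroid sets were called higher and 0 lower in B16F10-bearing against healthy animals, 3 and 1 in YUMM3.3-bearing against healthy animals, and 3 and 0 between the tumours. Of 10 T and NK cell sets, 1 was called higher and 2 lower in B16F10-bearing against healthy marrow (20.1% and 5.00% of all sets). In YUMM3.3-bearing against healthy marrow it was 0 and 1 (9.68% and 6.52% of all sets). Between the tumours in marrow it was 1 and 0 (8.09% and 8.40%). In spleen, 2 were higher and 2 lower in B16F10-bearing against healthy animals (16.6% and 1.60% of all sets). YUMM3.3-bearing against healthy spleen had 2 and 1 (15.6% and 5.31%), and the tumours in spleen 1 and 0 (9.63% and 1.47%). With so few sets, 1 set is a large share of each list, and the part of these cells in the mitochondrial results was not tested.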

How the data were processed

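Per the submitters' processing notes, the mm10 build, STAR 2.7.1a, DESeq2 1.22.2, FastQC 0.11.8 and featureCounts 1.6.0 were used. The sources used here do not give their roles, the ranking of genes, the permutation scheme or the gene set release. The 14 deposited reports are a pair for each of 7 comparisons. Per the file headers, they hold the enrichment score (ES), its normalised score (NES), the nominal p-value, FDR q-value and family-wise p of each set, its size, the rank of the peak and the leading edge; these were made by the authors. No tool was run on reads or counts.

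Each report was read as listing sets higher in its first-named group, and both cell line reports by their up and down labels. The deposited NES of the higher side was negative in the tumour against healthy comparisons and positive in the others, so the size of NES was kept and the sign set from the report. Directions therefore rest on the report names. Members were found by name, and full values are given for the sets with the largest and smallest mean NES size of each class. Counts, medians and ranks were computed with Python 3.11.15 and pandas 2.3.3, and the counting was tested on a made-up report. No test of sets was added. The members, classes and related sets were chosen with earlier results of these data known; lists of B cell, T and NK cell and erythroid sets, by name, were added after the data were seen. Depth per library is unknown. The files hold 0 columns of values by sample.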

Additional observations from a re-analysis of the deposited data

How the results depend on the processing

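Each of 14 counts, of mitochondrial sets called higher or lower in 7 comparisons, was recomputed under 7 alternatives, of which leaving out the 3 cell death sets was chosen after seeing the data. Of these 98 values, 81 stayed within 1.5 times the count reported and 17 did not. Using sets of 25 to 200 genes moved no count beyond that. Keeping names ending in DN, leaving out the apoptosis-named set and leaving out the 3 cell death sets could move no count. The reason is that 0 members end in DN and the sets left out were called in no comparison. Each of these 3 alternatives gave 14 of the 81 values, which therefore say nothing on stability. At a family-wise p below 0.05, the spleen counts went to 0: with B16F10 against healthy spleen 0 higher and 0 lower (5.25% and 0.489% of all sets), with B16F10 against YUMM3.3 in spleen 0 higher and 0 lower (1.42% and 0.386%). In the cell lines 4 were lower (0.362%). In marrow, the higher count against healthy was 9 with B16F10, against 13 at the FDR threshold (4.82% of all sets), and 9 with YUMM3.3, as at the FDR threshold (3.24%), and the lower count between the tumours was 7, against 9 (2.16%). At an FDR q below 0.25, 2 sets were called lower with B16F10 against healthy marrow (17.4% of all sets), 2 with YUMM3.3 against healthy marrow (20.1%), 2 with B16F10 against healthy spleen (5.79%) and 2 with B16F10 against YUMM3.3 in spleen (5.10%). At that q, 5 were called higher with B16F10 against YUMM3.3 in marrow (21.3%), and 1 higher and 1 lower with YUMM3.3 against healthy spleen (23.3% and 25%). With the 12 Reactome sets alone, the higher counts were 8 with B16F10 (66.7% of the 12) and 5 with YUMM3.3 (41.7%) against healthy marrow. They were 6 with B16F10 against healthy spleen (50.0%) and 4 with B16F10 against YUMM3.3 in spleen (33.3%). The lower count between the tumours in marrow was 5 (41.7%). Fewer sets were counted by construction, and the matching shares of the 19 sets were 68.4%, 47.4%, 52.6%, 42.1% and 47.4%. Shares over all Reactome sets were not computed. No paired analysis was possible because the files hold no values by library, and for the same reason no replicate could be left out. A reversal of the report names of a tissue would turn every direction in it and could not be checked from these files.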

Other observations

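Mitophagy sets, which lie outside the naming rule, had NES of opposite sign with YUMM3.3 in the 2 tissues. REACTOME_PINK_PARKIN_MEDIATED_MITOPHAGY, of 16 genes for the tagging of damaged mitochondria for removal, was called higher in both tumours against healthy marrow, with an NES of 1.58 with B16F10 (q = 0.0468) and 1.70 with YUMM3.3 (q = 0.0292) in the authors' deposited table. In spleen, the authors' deposited table gave it 1.32 in B16F10-bearing and -1.50 in YUMM3.3-bearing animals against healthy animals, with q of 0.237 and 0.113, so neither was called. REACTOME_MITOPHAGY, of 22 genes, was called in none of the 7 comparisons, with NES of 1.45 and -1.53 in the authors' deposited table for YUMM3.3-bearing against healthy marrow and spleen.

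Charging of cytosolic tRNAs followed neither electron transport nor the mitochondrial ribosome. REACTOME_CYTOSOLIC_TRNA_AMINOACYLATION, of 24 genes, had an NES of 2.34 in B16F10-bearing against healthy marrow in the authors' deposited table, with 92% of its genes within the first 20% of the list, and -0.993 in YUMM3.3-bearing against healthy marrow (q = 0.620). In spleen the authors' deposited table gave it 1.76 in B16F10-bearing (q = 0.0142) and 1.89 in YUMM3.3-bearing animals (q = 0.00267), both against healthy animals, and in YUMM3.3 against B16F10 cells it gave -1.09 (q = 0.602).

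MOOTHA_HUMAN_MITODB_6_2002, a list of 369 human mitochondrial proteins (364 in the lines) that the naming rule missed, was called in 6 of the 7 comparisons, all but YUMM3.3-bearing against healthy spleen, where its NES was 0.843 in the authors' deposited table.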
